A study of Mus musculus with 12 samples.

Results

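The 10 genes described here, Slc25a1, Acly, Acss2, Acaca, Fasn, Scd1, Scd2, Elovl6, Fads1 and Fads2, encode the citrate carrier, the enzymes that make cytosolic acetyl-CoA and malonyl-CoA, fatty acid synthase, an elongase and the desaturases. They were chosen by symbol, with earlier results of these data known. Each symbol matched 1 gene ID among the 57180 genes in the deposited annotation, and all 10 passed the filter on low counts. RNA sequencing was carried out on 12 libraries in 4 groups of 3, from mouse ESCs and from EpiLCs at day 2 of induction. All 12 come from E14-dox-CRISPRi cells, an ESC line derived from 1 picked clone in which doxycycline drives expression of a dead Cas9 fused to repressor domains. The Neg groups carry control (negative/scramble) guides, and the 3xKD groups carry guides aimed at the transcription start of 3 genes, Pcx, Me1 and Me2, which encode pyruvate carboxylase and the cytosolic and mitochondrial malic enzymes. No other genotype was sequenced, so a difference between Neg and 3xKD is also a difference between a pair of guide-carrying lines. ESCs were kept in serum-free medium with kinase inhibitors and LIF, and EpiLCs were moved to FAX medium, so state and medium cannot be told apart. The study's methods describe DMSO and doxycycline arms. The study presents the expression data of these lines, in both states, as coming from doxycycline-treated cells, and the labels do not name the arm in words.

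Fatty acid synthesis in the cytosol starts from citrate made in mitochondria. The citrate carrier exports it, ATP citrate lyase splits it into acetyl-CoA and oxaloacetate, acetyl-CoA carboxylase adds carbon dioxide to give malonyl-CoA, and fatty acid synthase builds palmitate with NADPH as the reductant. Acetyl-CoA synthetase supplies acetyl-CoA from acetate instead of citrate. Elongases lengthen palmitate, stearoyl-CoA desaturases place the first double bond, and the fatty acid desaturases Fads1 and Fads2 work on polyunsaturated chains. The oxaloacetate left by citrate cleavage can return to pyruvate through malate and cytosolic malic enzyme, which makes NADPH, and pyruvate carboxylase refills the mitochondrial oxaloacetate pool. The comparison of 3xKD with Neg cells therefore asks how the genes of citrate export and lipid synthesis read when the enzymes of pyruvate cycling are repressed.

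The libraries held between 11221023 and 19652197 estimated counts in genes. Values are given as CPM, counts scaled to a common library total with TMM factors, which follow 1 gene across libraries and do not compare genes of different length. Each targeted gene was lower in the 3xKD libraries in both states. Pcx was at 36.2 CPM on average in Neg ESCs and 16.4 in 3xKD ESCs, and at 51.0 and 24.6 in the EpiLCs. Me1 was at 69.2 and 37.3 CPM in ESCs and at 34.8 and 16.8 in EpiLCs, and Me2 was at 101 and 52.3 in ESCs while in EpiLCs it was at 70.9 and 36. The cell type field of the labels calls all Neg libraries ESCs and all 3xKD libraries EpiLCs, against the titles, and groups were taken from the titles. The 8 naive markers summed to 5099 to 5258 CPM in Neg ESCs, 3986 to 4062 in 3xKD ESCs, 308 to 322 in Neg EpiLCs and 454 to 469 in 3xKD EpiLCs. The 6 formative markers summed to 259 to 271, 286 to 293, 3025 to 3390 and 1728 to 1792 CPM in the same order. Both sums separate the libraries as the titles do, and both also differ between Neg and 3xKD cells of 1 state; their part in the differences below was not tested. All 4 markers of adipocytes and hepatocytes, cells known for high lipid synthesis, were under 1 CPM in every group. The summed markers of primitive endoderm, trophoblast and fibroblasts were at most 30.1, 7.38 and 8.36 CPM in any library. In ESCs each of these sums was higher in 3xKD than in Neg libraries without overlap. In EpiLCs the primitive endoderm sum was lower in 3xKD libraries and the others were higher, again without overlap. Their part in the differences below was not tested either.

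Promoter windows from RefSeq were held for 7 of the 10 genes (Slc25a1, Acly, Acss2, Acaca, Fasn, Elovl6 and Fads2), and Scd1, Scd2 and Fads1 had no entry. The 250 bases before each RefSeq start site were searched on both strands for 4 sequence elements: TCACNCCAC (a sterol regulatory element), CACGTG (the E-box), CCAAT and GGGCGG (the GC box). The sterol regulatory element letters were in none of the 7 windows and in 1.04% of the 32536 different windows of all genes. At so low a share, none in 7 windows is no result about these genes, and variants of the letters were not searched. The E-box was in 1 of the 7 (Slc25a1) and in 6.04% of all, CCAAT was in 3 of the 7 (Slc25a1, Acss2 and Fasn) and in 33.8% of all, and the GC box was in 4 of the 7 (Slc25a1, Acly, Acss2 and Fads2) and in 33% of all. The RefSeq start sites of Acss2, Acly and Acaca lie 4284, 21930 and 65788 bases inside the longest annotated extent of their genes, so other start sites lie upstream of them. Those of Elovl6, Slc25a1, Fads2 and Fasn lie 31, 162, 336 and 622 bases inside. The CCAAT and GC box matches of Slc25a1 therefore lie inside its annotated gene. The Fasn stretch printed below also lies inside its gene, outside annotated exons. Below are the stretches outside annotated exons for Slc25a1, which rose in the 3xKD cells of both states, and Fasn, which did not rise in either. Both lie on the minus strand of GRCm39 (chr16:17746246-17746333 and chr11:120715403-120715623) and are written in the direction of transcription, with capitals marking matches to the searched elements.
Slc25a1: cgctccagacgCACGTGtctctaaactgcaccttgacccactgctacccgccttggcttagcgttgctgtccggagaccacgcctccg
Fasn: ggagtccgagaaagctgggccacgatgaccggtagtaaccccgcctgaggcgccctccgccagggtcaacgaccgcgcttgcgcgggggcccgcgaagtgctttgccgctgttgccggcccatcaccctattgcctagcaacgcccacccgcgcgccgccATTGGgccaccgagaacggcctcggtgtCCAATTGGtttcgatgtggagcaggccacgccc
In the Slc25a1 stretch the capitals are an E-box, which begins 239 bases before the RefSeq start site. In the Fasn stretch they are 3 CCAAT matches, on the minus, plus and minus strand, beginning 90, 62 and 59 bases before the start site, and the last 2 share bases. A match is a run of letters and was not measured as a bound site.

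All 10 genes were expressed in both states. To compare levels between genes, TPM, an abundance that is divided by transcript length, was taken from the transcript that held most of each gene's estimated counts rather than summed per gene. Short annotated fragments weigh on the sum: in Neg ESCs a Scd1 transcript with an effective length of 79 bases took 37.3% to 45.2% of the gene's TPM and on average 1.6% of its counts. Scd2, the stearoyl-CoA desaturase expressed in many tissues outside the liver, was the highest in every group, with a mean of 136 TPM in Neg ESCs, 223 in 3xKD ESCs, 175 in Neg EpiLCs and 186 in 3xKD EpiLCs. In Neg ESCs the order below Scd2 was Slc25a1 (56.3 TPM), Acly (43.5), Fasn (38.6), Scd1 (36.8), Elovl6 (29.0), Fads1 (20.3), Fads2 (17.1), Acaca (7.57) and Acss2 (5.93). The order of Slc25a1 and Acly depends on the measure. The Acly transcript used held on average 57.7% of the gene's counts in Neg ESCs, and another of similar length held 38.3%. By TPM summed per gene Acly was above Slc25a1 there, at 98.1 against 76.5. By the main transcripts the Neg ESC libraries of both genes overlapped, at 40.0 to 49.4 TPM for Acly and 45.8 to 72.6 for Slc25a1. In Neg EpiLCs Fasn came next to Scd2 at 64.8 TPM, followed by Acly (42.1), Slc25a1 (33.9), Elovl6 (33.1), Scd1 (28.6), Fads2 (27.7), Fads1 (18.9), Acaca (15.2) and Acss2 (4.76). Acss2 was the lowest in 3 of the 4 groups, and in 3xKD ESCs Acaca was below it at 8.71 against 10.3 TPM.

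In the 3xKD cells of both states the RNA of the citrate carrier (Slc25a1), acetyl-CoA synthetase (Acss2) and the desaturases Scd1, Fads1 and Fads2 rose, and that of Scd2 rose in ESCs. Acly and Acaca in both states and Scd2 in EpiLCs had positive values that stayed within the fold limit of the call, and Fasn and Elovl6 had values below 0 that were not called. A gene was called when its Benjamini-Hochberg adjusted p in edgeR's quasi-likelihood test was below 0.01 and its log2 fold change was beyond 0.58 in size. In ESCs 6 of the 10 genes were called higher and 0 lower, against 8.5% of the 25446 tested genes called higher and 6.76% called lower. Their median on the log2 scale was 0.80, beside 0.03 for all tested genes. In EpiLCs 5 were called higher and 0 lower, against 7.88% and 5.35% of all genes, with a median of 0.58 and of 0.03 for all genes. Since the 10 genes were chosen with earlier results known, these counts are descriptions and no test of a set. RNA was measured in bulk, so a change per cell and a change in the share of cells that express a gene cannot be told apart. The labels call the libraries replicates, and the study's methods describe experiments in general as done with biological triplicates; p-values measure the spread between these libraries.

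**Figure D1:**
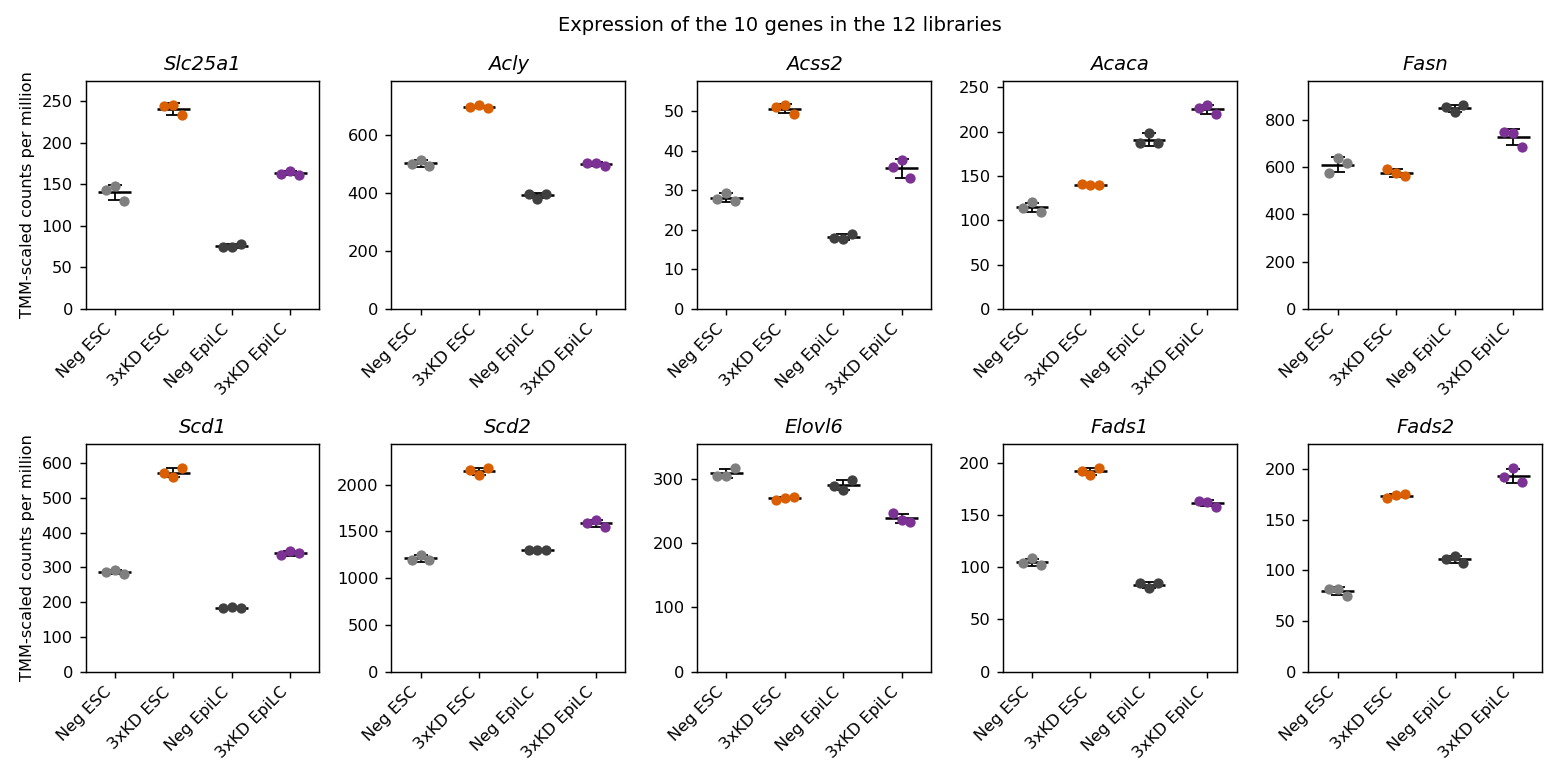
Expression of the 10 genes in each of the 12 libraries, in TMM-scaled CPM on axes that start at 0. Points are libraries, the long bar is the mean of 3 and the whiskers are 1 SD. The 3xKD points lie above the Neg points of the same state for every gene except Fasn and Elovl6.

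Slc25a1 (ENSMUSG00000003528, chr16:17743075-17746245, minus strand, GRCm39) encodes the mitochondrial citrate carrier. Its libraries read 143, 147.8 and 130.3 CPM in Neg ESCs and 244.6, 245.2 and 233.2 CPM in 3xKD ESCs. In EpiLCs they read 74.7, 74.2 and 78.3 CPM in the Neg line and 162.3, 166.2 and 161.9 CPM in the 3xKD line. The groups did not overlap in either state, and the 3xKD EpiLCs were above the Neg ESCs. Slc25a1 rose by 0.78 ± 0.04 on the log2 scale (SE, edgeR adjusted p = 4.0e-10) in ESCs and by 1.11 ± 0.04 (adjusted p = 1.7e-11) in EpiLCs.

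Slc25a1 is the member on chromosome 16, and chromosome 16 as a whole was higher in the 3xKD libraries. Its 454 genes averaging 1 CPM or more had median differences of 3xKD from Neg of 0.30 (log2) in the ESC and 0.30 in the EpiLC comparison, the highest of all chromosomes in both. In the ESC comparison 107 of them passed as higher against 19 as lower, and in the EpiLC comparison 118 against 9. The 24 genes within 500 kb of Slc25a1 had a median of 0.28 in ESCs and 0.36 in EpiLCs. Slc25a1 itself stood 0.48 above the chromosome median in ESCs and 0.81 above it in EpiLCs, on the log2 scale. The part of the chromosome-wide shift in the difference of Slc25a1 was not tested. The medians of chromosomes 2, 3, 11 and 19, which hold the other 9 genes, ranged from −0.05 to 0.04 in the same comparisons. Within 500 kb of Acly lie 22 such genes, with their median at 0.20 (ESCs) and 0.36 (EpiLCs). Acly itself was at 0.47 and 0.35, so its EpiLC value was no higher than that of its surroundings. Around Elovl6, whose own values were negative, the median of 8 genes was 0.68 and 0.19. Around Acss2, Acaca, Fasn, Scd1, Scd2, Fads1 and Fads2 the medians lay between −0.21 and 0.16. The part of these local values in the differences of the genes was not tested.

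**Figure D2:**
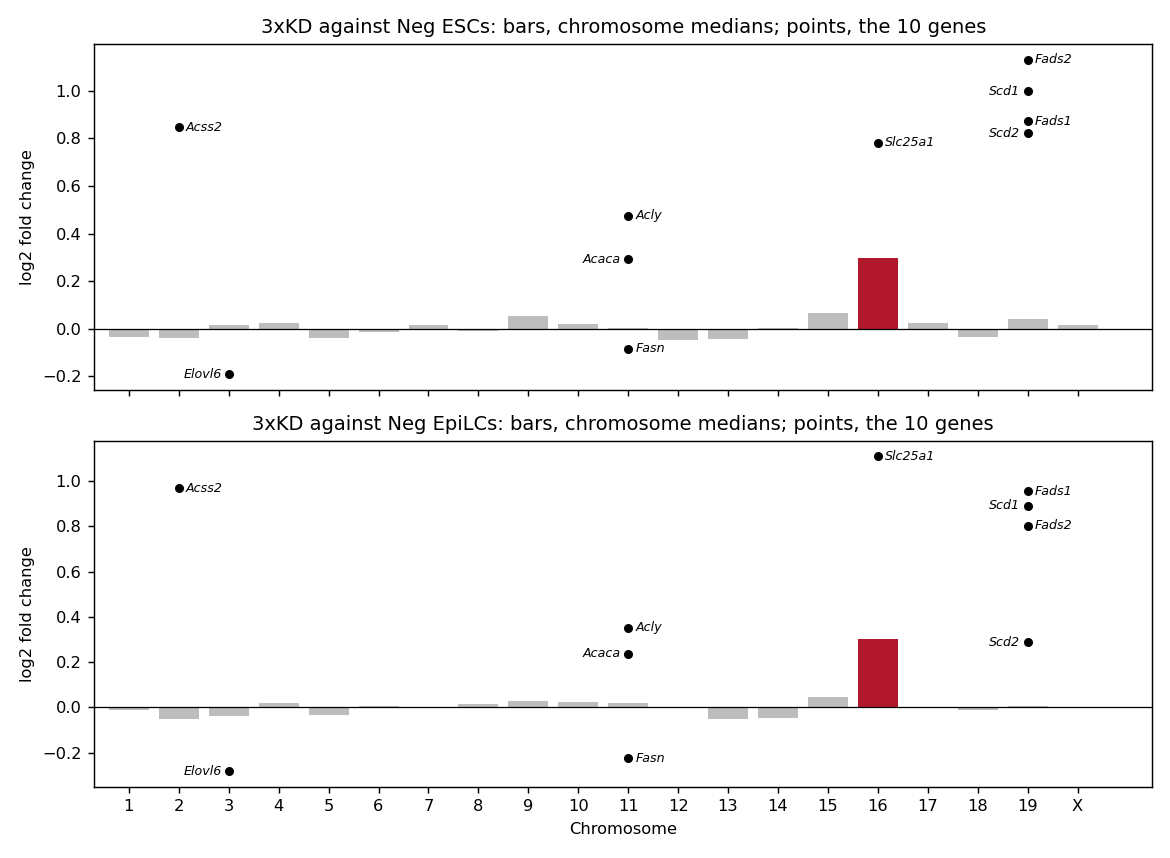
Log2 fold change of 3xKD over Neg in ESCs (top) and EpiLCs (bottom) by chromosome. Bars are the medians of genes averaging 1 CPM or more, with chromosome 16 in red at 0.30 in both, and points are the 10 genes on their chromosomes.

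Acetyl-CoA is made by both Acly and Acss2, and their RNA differed in how much it moved. Acly (ENSMUSG00000020917, chr11:100367165-100440756, minus strand), the citrate lyase, read 500.6, 514 and 492.2 CPM in Neg ESCs and 696.6, 702.5 and 693.8 in 3xKD ESCs. In EpiLCs it read 397.6, 380.2 and 397 CPM in the Neg line and 505.2, 502.7 and 491.9 in the 3xKD line. The groups of each state did not overlap, yet the log2 fold changes, 0.47 ± 0.03 in ESCs (adjusted p = 2.8e-09) and 0.35 ± 0.03 in EpiLCs (adjusted p = 1.0e-07), stayed within the fold limit, and Acly was not called. Acss2 (ENSMUSG00000027605, chr2:155355679-155428016, plus strand), the cytosolic acetyl-CoA synthetase, was the lowest of the 10 in CPM. It read 27.8, 29.3 and 27.2 CPM in Neg ESCs against 51.1, 51.4 and 49.3 in 3xKD ESCs. In EpiLCs it read 17.9, 17.6 and 18.9 CPM against 35.8, 37.7 and 33.0. Acss2 rose by 0.85 ± 0.06 in ESCs (adjusted p = 4.8e-09) and by 0.97 ± 0.06 in EpiLCs (adjusted p = 2.1e-09), on the log2 scale, without overlap of the groups.

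The enzymes of chain building moved little. Acaca (ENSMUSG00000020532, chr11:84020476-84292477, plus strand), acetyl-CoA carboxylase, read 113.6, 120.3 and 109.5 CPM in Neg ESCs and 140.4, 140.3 and 139.2 in 3xKD ESCs. In EpiLCs it read 187.1, 198.9 and 187.2 CPM in the Neg line and 226.6, 229.5 and 219.7 in the 3xKD line. Its log2 fold changes, 0.29 ± 0.04 (adjusted p = 1.2e-05) and 0.24 ± 0.04 (adjusted p = 7.3e-05), were larger than the spread between libraries and within the fold limit. Fasn (ENSMUSG00000025153, chr11:120696672-120715995, minus strand), fatty acid synthase, read 576.5, 638.1 and 616.3 CPM in Neg ESCs and 593.9, 573.3 and 561 in 3xKD ESCs. These groups overlapped, and the difference of −0.08 had a 95% interval from −0.17 to 0.01 (adjusted p = 0.14), so a rise of the size seen for Slc25a1 lies outside it. In EpiLCs Fasn read 854.2, 833 and 861.2 CPM in the Neg line and 749.2, 743.6 and 687.3 in the 3xKD line, without overlap, a log2 fold change of −0.23 ± 0.04 (adjusted p = 3.6e-04) that did not reach the fold limit.

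Elovl6 (ENSMUSG00000041220, chr3:129326004-129432144, plus strand), which elongates palmitate to stearate, was the other gene with a negative value in both states. It read 303.9, 303.7 and 316.1 CPM in Neg ESCs and 267.2, 269.9 and 271.3 in 3xKD ESCs. In EpiLCs it read 288.7, 282.2 and 298.1 CPM in the Neg line and 246.3, 235.9 and 232.7 in the 3xKD line. The groups did not overlap, and the log2 fold changes of −0.19 ± 0.03 (adjusted p = 1.4e-04) and −0.28 ± 0.03 (adjusted p = 3.0e-06) were within the fold limit. Their sign rests on the lengths used: with the average transcript length of each library as an offset, the values were 0.18 (adjusted p = 0.35) and 0.07 (adjusted p = 0.75). The long transcript of Elovl6 held 85.7% of the gene's estimated counts on average in Neg ESCs and 76.0% in 3xKD ESCs, and 86.8% and 79.8% in the EpiLCs.

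All 4 desaturases rose in 3xKD ESCs, and 3 of them also in 3xKD EpiLCs. Scd1 (ENSMUSG00000037071, chr19:44382894-44399154, minus strand) and Scd2 (ENSMUSG00000025203, chr19:44281613-44295303, plus strand) are stearoyl-CoA desaturases of 1 gene cluster and close in sequence, so reads that match both were divided between them by estimation. Scd1 read 287.5, 292.5 and 279.9 CPM in Neg ESCs and 572, 559.5 and 585.7 in 3xKD ESCs. In EpiLCs Scd1 read 182.7, 185.2 and 183.1 CPM in the Neg line and 334.2, 347.1 and 340 in the 3xKD line. Scd1 rose by 1.00 ± 0.03 in ESCs (adjusted p = 1.4e-12) and by 0.89 ± 0.03 in EpiLCs (adjusted p = 4.6e-12), on the log2 scale. Scd2 read 1193, 1251 and 1189 CPM in Neg ESCs and 2150, 2101 and 2175 in 3xKD ESCs. In EpiLCs Scd2 read 1295, 1297 and 1303 CPM in the Neg line and 1593, 1620 and 1542 in the 3xKD line. Scd2 rose by 0.82 ± 0.03 in ESCs (adjusted p = 1.3e-11), and in EpiLCs its value was 0.29 ± 0.03 (adjusted p = 2.0e-06) and not called, although no library of one group reached the other.

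Fads1 (ENSMUSG00000010663, chr19:10160167-10174241, plus strand), the delta-5 desaturase, and Fads2 (ENSMUSG00000024665, chr19:10038130-10079203, minus strand), the delta-6 desaturase, lie close together on the same chromosome. Fads1 read 103.6, 108.5 and 102.2 CPM in Neg ESCs and 191.9, 188.5 and 194.9 in 3xKD ESCs. In EpiLCs Fads1 read 85.1, 80.1 and 84.5 CPM in the Neg line and 163.8, 162.8 and 158 in the 3xKD line. Fads1 rose by 0.87 ± 0.04 in ESCs (adjusted p = 1.7e-11) and by 0.96 ± 0.04 in EpiLCs (adjusted p = 9.4e-12), on the log2 scale. Fads2 read 81.5, 81.8 and 75.1 CPM in Neg ESCs and 171.7, 174.1 and 175.5 in 3xKD ESCs. In EpiLCs Fads2 read 111.2, 114 and 107.3 CPM in the Neg line and 191.7, 200.8 and 187.5 in the 3xKD line. Fads2 rose by 1.13 ± 0.04 in ESCs (adjusted p = 4.2e-12), the highest value of the 10 there, and by 0.80 ± 0.04 in EpiLCs (adjusted p = 1.5e-10). Around the 2 desaturase clusters the medians on the log2 scale lay below these values. The 20 genes within 500 kb of Fads2 had medians of 0.16 (ESCs) and −0.21 (EpiLCs), and the 11 around Scd1 had medians of 0.15 and 0.0009. Single neighbours were called all the same. Near Fads2 the ESC comparison called 3 up against 1 down, and the EpiLC comparison 2 up against 3 down. Near Scd1 these calls were 1 up against 0 down, then 2 up against 2 down. The part of the surroundings in the desaturase differences was not tested.

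**Figure D3:**
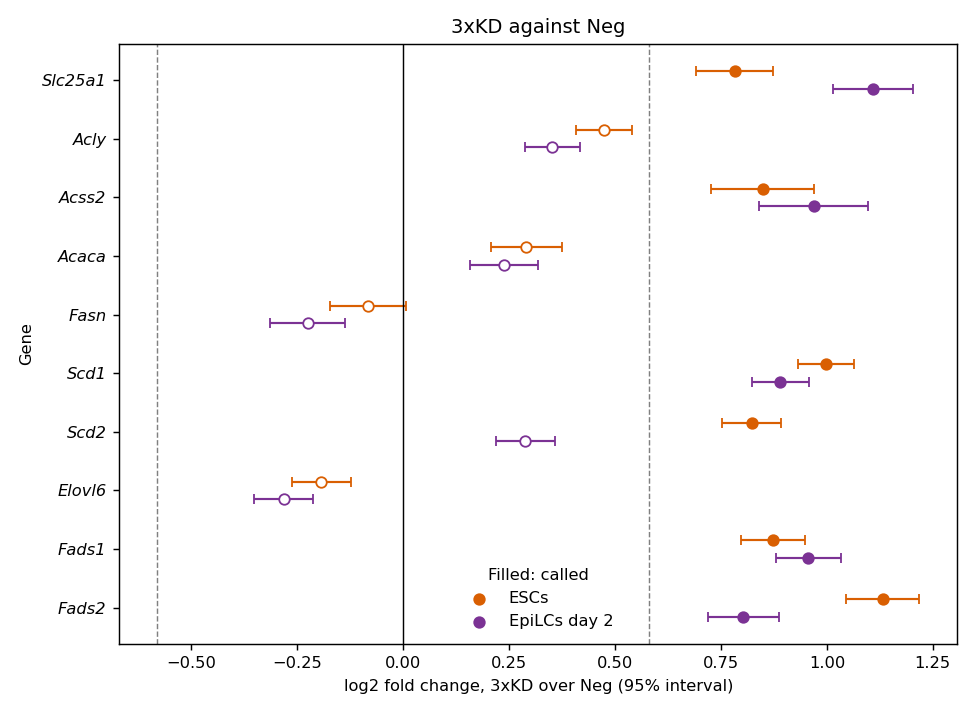
Log2 fold change of 3xKD over Neg for the 10 genes in ESCs (orange) and EpiLCs at day 2 (purple), with 95% intervals and dashed lines at the fold limit of 0.58. Filled points were called. Scd2 is called in ESCs at 0.82 and not in EpiLCs at 0.29, and Fasn and Elovl6 lie below 0 in both.

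The size of the 3xKD effect was then compared between the states within the same model, as the EpiLC effect minus the ESC effect. At adjusted p below 0.01 and with no fold limit, 3 of the 10 genes differed. This stands against 10% of all tested genes and 26.3% of the 5846 genes with a mean at least as high as that of Acss2, at 33.1 CPM. The count lies near the latter share and is no result about the 10 genes as a group. Scd2 had the smaller effect in EpiLCs, by −0.53 ± 0.05 (edgeR adjusted p = 6.1e-07). For Fads2 the effect in EpiLCs was also smaller, by −0.33 ± 0.06 (adjusted p = 6.0e-04). Slc25a1 had the larger effect in EpiLCs, by 0.33 ± 0.06 (adjusted p = 1.2e-03), and this call was lost with transcript-length offsets (0.09, adjusted p = 0.69). For the other 7 genes the difference between the states was not called. The 95% interval of that difference ran from −0.20 to −0.01 for Scd1, from −0.02 to 0.19 for Fads1 and from −0.06 to 0.30 for Acss2.

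Between ESCs and EpiLCs of the Neg line the 10 genes did not move as 1 group. The question here is how the pathway's RNA changes as cells leave naive pluripotency, and the comparisons below share libraries with those above. In Neg cells 1 gene was called higher in EpiLCs and 3 lower, against 9.78% and 11% of all tested genes. Acaca rose from a mean of 114.5 to 191.1 CPM, a log2 fold change of 0.74 ± 0.04 (adjusted p = 7.6e-11). Slc25a1 fell from 140.4 to 75.7 CPM, a log2 fold change of −0.89 ± 0.04 (adjusted p = 4.6e-11). Scd1 fell from 286.6 to 183.7 CPM (−0.64 ± 0.03, adjusted p = 3.2e-11), and Acss2 fell from 28.1 to 18.1 CPM (−0.63 ± 0.06, adjusted p = 2.4e-07). Both of the last values lie near the fold limit, and with upper-quartile scaling they were −0.56 and −0.55 and no longer called. The call on Acss2 was also lost with transcript-length offsets (−0.58) and without the second Neg EpiLC library (−0.58). Genes within 500 kb had medians of −0.35 around Slc25a1, −0.30 around Acss2, −0.26 around Scd1 and 0.22 around Acaca between the Neg states. Around Acly the median was −0.73, and around the remaining genes the medians lay between −0.27 and 0.25. The part of these local values in the differences was not tested.

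The other 6 genes were not called between the Neg states. Fasn was at 610 and 850 CPM (0.48 ± 0.04, adjusted p = 6.4e-08), and Fads2 was at 79.5 and 110.8 CPM (0.48 ± 0.04, adjusted p = 4.2e-08). With transcript-length offsets or factors Fads2 was called, at up to 1.00, and its transcript with an effective length of 105 bases held 0% of the counts in Neg ESCs and on average 1.39% in Neg EpiLCs. Acly was at 502.3 and 391.6 CPM (−0.36 ± 0.03) and Fads1 at 104.8 and 83.2 CPM (−0.33 ± 0.04). Scd2 (0.10 ± 0.03, adjusted p = 0.020) and Elovl6 (−0.09 ± 0.03, adjusted p = 0.039) had the smallest values. Fasn, Acaca, Fads2 and Scd2 thus read higher in Neg EpiLCs than in Neg ESCs. Slc25a1, Acly, Acss2, Scd1, Fads1 and Elovl6 read lower in Neg EpiLCs.

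In the 3xKD line 1 gene was called higher in EpiLCs than in ESCs and 1 lower, against 9.42% and 9.32% of all tested genes. Acaca rose from 140 to 225.3 CPM (0.69 ± 0.04, adjusted p = 2.1e-10), and Scd1 fell from 572.4 to 340.4 CPM (−0.75 ± 0.03, adjusted p = 4.4e-12). Slc25a1, at 241 and 163.5 CPM, had a value of −0.56 ± 0.04 (adjusted p = 1.1e-08), just within the fold limit. Scd2, which had a small positive value between the Neg states, was at 2142 CPM in 3xKD ESCs and 1585 in 3xKD EpiLCs (−0.43 ± 0.03, adjusted p = 1.0e-08). Fads2, which read higher in Neg EpiLCs than in Neg ESCs, was at 173.7 and 193.3 CPM in the 3xKD line (0.15 ± 0.04, adjusted p = 3.8e-03).

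**Figure D4:**
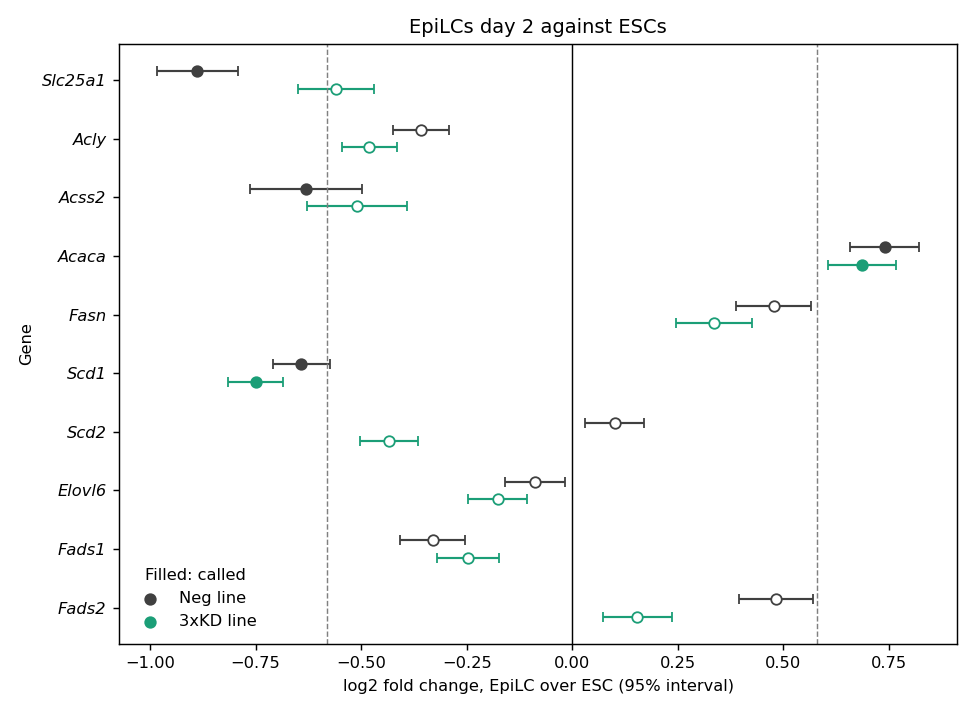
Log2 fold change of EpiLCs at day 2 over ESCs for the 10 genes in the Neg line (grey) and the 3xKD line (green), with 95% intervals and dashed lines at the fold limit of 0.58. Filled points were called. Acaca is called higher and Scd1 lower in both lines.

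The ratio of the stearoyl-CoA desaturases shifted between states and lines. By TPM of the main transcripts, Scd2 made up 78.2%, 79.0% and 78.6% of Scd1 and Scd2 together in the Neg ESC libraries. In Neg EpiLCs its share was 86.0%, 85.8% and 86.0%. In the 3xKD libraries it was 76.8%, 76.5% and 76.5% in ESCs and 80.7%, 80.3% and 79.8% in EpiLCs. By this measure no library of one group reached the range of another. The main transcripts were chosen as the measure after the values were seen, and by TPM summed per gene the groups overlapped: the share was 63.9% to 66.3% in Neg ESCs, 61.7% to 64.0% in 3xKD ESCs and 63.9% to 69.9% in 3xKD EpiLCs, and only Neg EpiLCs, at 77.4% to 79.1%, stood apart. With 3 libraries against 3 an exact permutation test cannot give a two-sided p below 0.1, so the shares were not tested.

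Genes of lipid metabolism were counted from lists of the pathway. The lists for cytosolic synthesis, elongation and desaturation hold the 10 genes described above, so their counts and medians include them. The counts of each list stand beside 8.5% of all tested genes called higher and 6.76% called lower in the ESC comparison, and 7.88% and 5.35% in the EpiLC comparison. Of the 10 genes for acetyl-CoA, malonyl-CoA and cytosolic fatty acid synthesis, 5 are described above. In this list 6 were called higher and 0 lower in 3xKD ESCs, and 3 and 0 in 3xKD EpiLCs. Slc25a1 and Acss2 were among those called in both states. Mlycd, malonyl-CoA decarboxylase, which degrades malonyl-CoA, rose in both, by 1.102 ± 0.06 in ESCs (126.7 against 58.9 CPM) and 1.15 ± 0.05 in EpiLCs (155 against 70.0 CPM), on the log2 scale. Mid1ip1, a partner of acetyl-CoA carboxylase, rose by 1.02 ± 0.09 in ESCs and was at 0.47 ± 0.08 in EpiLCs, not called. Thrsp, a relative of Mid1ip1, rose by 1.52 ± 0.32 in ESCs from a mean of 1.33 CPM and was at 0.34 ± 0.42 in EpiLCs. In the mitochondrial synthesis list 1 of 6 genes was called, higher, in each state, and this was Hsd17b8 (0.79 ± 0.11 and 0.91 ± 0.11). So few calls are no result about that list, and the ESC call on Hsd17b8 was lost under DESeq2 with transcript-length factors (0.84, adjusted p = 0.015), which left 0 of the 6, and with transcript-length offsets the calls of both states were lost (0.88 and 0.89, adjusted p = 0.031 and 0.029).

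Of the 13 genes of the elongation cycle, 2 were called higher in ESCs, 3 in EpiLCs and 0 lower in either, beside the 8.5% and 7.88% of all tested genes called higher, and so few calls are no result about the list. Tecr, which catalyses the last reduction of the cycle, rose by 0.95 ± 0.05 in ESCs and 0.98 ± 0.05 in EpiLCs, and Elovl2, an elongase of polyunsaturated chains, rose by 0.69 ± 0.13 and 0.97 ± 0.13. Elovl7 was at −0.14 ± 0.11 in ESCs and rose by 0.59 ± 0.15 in EpiLCs, just past the fold limit. Among the desaturases 7 of 8 listed genes were tested, and 6 were called higher in ESCs and 4 in EpiLCs, with 0 lower. Beyond the 4 described above these were Fads6 (1.03 ± 0.19 and 0.89 ± 0.19) and, in ESCs, Scd3 (1.06 ± 0.26, at 2.34 against 1.14 CPM). Of the 5 long-chain acyl-CoA synthetases, which activate free fatty acids, Acsl3 rose in both states (0.65 ± 0.04 and 0.74 ± 0.04). Acsl4, which prefers arachidonate, was at 82.4 against 56.4 CPM in ESCs (0.55 ± 0.04, not called) and fell in EpiLCs, at 153.8 against 238.4 CPM (−0.63 ± 0.03, adjusted p = 2.2e-10). Both values depend on the lengths used: under DESeq2 with transcript-length factors Acsl4 was at 0.0760 in ESCs (adjusted p = 0.86) and at −0.47 in EpiLCs (adjusted p = 0.15), no longer called.

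The regulators of these genes were mostly not called. Of 16 listed, the ESC comparison called 2 higher and 1 lower, and the EpiLC comparison 2 higher and 0 lower. These counts lie near the shares of all tested genes (8.5% higher and 6.76% lower in ESCs, 7.88% and 5.35% in EpiLCs) and are no result about the list. Srebf1 and Srebf2 encode SREBP1 and SREBP2, transcription factors of fatty acid and cholesterol synthesis that are held in the endoplasmic reticulum by the INSIG proteins. Srebf1 was at 177.6 against 119.5 CPM in ESCs (0.57 ± 0.03, adjusted p = 7.3e-10) and 142.1 against 114.8 in EpiLCs (0.31 ± 0.03, adjusted p = 1.1e-06), within the fold limit in both. Its ESC value lies near that limit and was called with upper-quartile factors (0.59), with DESeq2 and transcript-length factors (0.68), with transcript-length offsets (0.72), and without Neg ESC library 2 or 3, 3xKD ESC library 1, Neg EpiLC library 1 or 2 or 3xKD EpiLC library 3 (0.58 to 0.60). Srebf2 was at 0.46 ± 0.03 and 0.19 ± 0.03, also not called. Insig1 rose by 0.90 ± 0.04 in ESCs and 0.70 ± 0.04 in EpiLCs, and Mlxipl, the carbohydrate-response factor ChREBP, rose by 0.91 ± 0.13 and 0.86 ± 0.13. Prkaa1, a catalytic subunit of AMP-activated protein kinase, which inhibits acetyl-CoA carboxylase, fell by 0.60 in ESCs and was at −0.51 ± 0.06 in EpiLCs. Prkaa2, the other catalytic subunit, named here after its values were seen, was at 0.45 ± 0.05 in ESCs (adjusted p = 4.2e-06) and 0.41 ± 0.06 in EpiLCs (adjusted p = 1.8e-05), not called in either.

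Of 21 genes of cholesterol synthesis and uptake, taken for comparison, 11 were called higher in ESCs, 6 in EpiLCs and 0 lower in either. By the test of the difference between states, the EpiLC value was below the ESC value for 12 of the 21 and above it for 0. Of all tested genes 10% were called in either direction by that test, and of the 5846 genes with a mean at least as high as that of Acss2 15.7% were called lower and 10.6% higher. The balance of directions over all tested genes depends on the scaling, with 1211 higher and 1342 lower under TMM factors and 1522 higher and 824 lower with library size alone. Genes called in both states included Msmo1 (1.103 ± 0.05 and 0.75 ± 0.05), Dhcr7 (1.39 ± 0.04 and 0.89 ± 0.04), Mvd (0.87 ± 0.05 and 0.60 ± 0.05) and Tm7sf2 (0.87 ± 0.10 and 0.97 ± 0.11). Cyp51 and Pmvk rose in ESCs (0.82 ± 0.05 and 0.79 ± 0.10) and were at 0.41 ± 0.04 and 0.56 ± 0.10 in EpiLCs, not called. The counts of each list are descriptions and were not tested as sets.

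**Figure D5:**
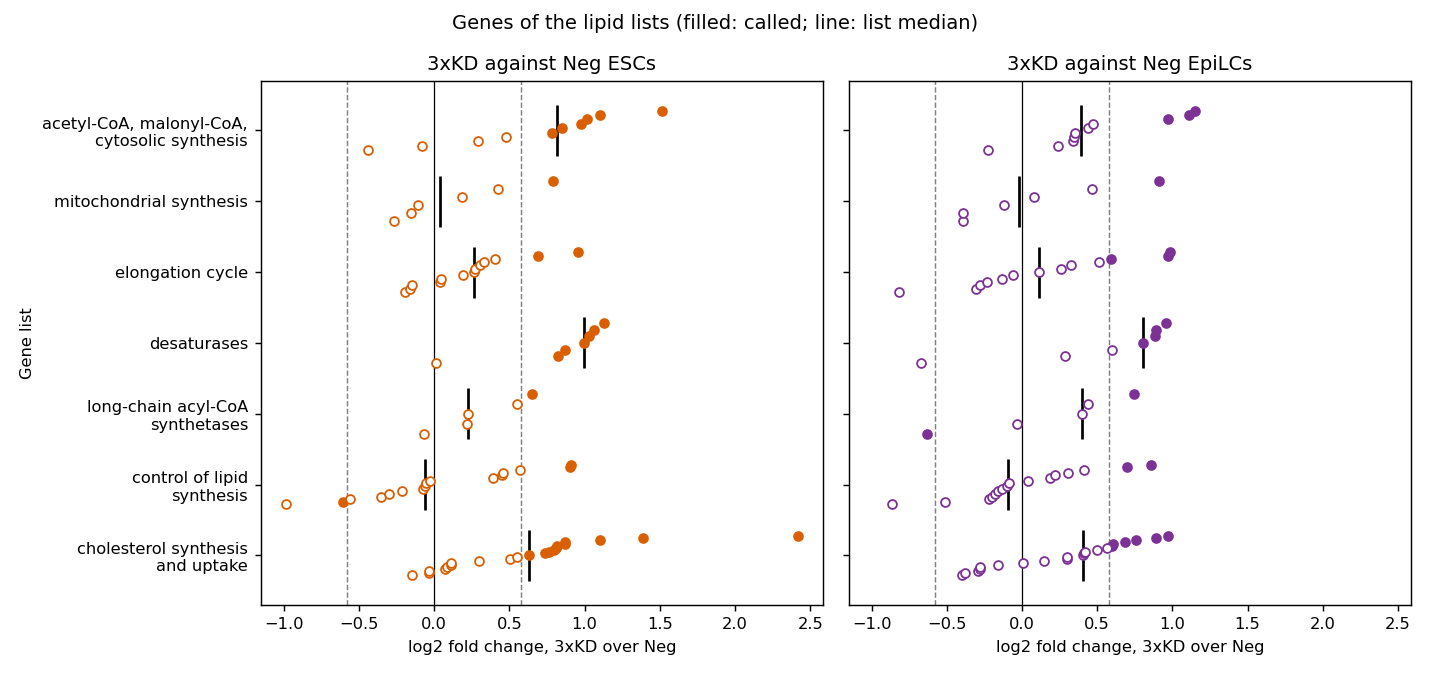
Log2 fold change of 3xKD over Neg for every tested gene of the 7 lists, in ESCs (left) and EpiLCs (right). Filled points were called, dashed lines mark the fold limit of 0.58 and black bars the list medians. For the desaturases, with Scd1, Scd2, Fads1 and Fads2 included, these are 1.00 and 0.80.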

How the data were processed

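Libraries were made after rRNA depletion with a directional kit and sequenced single-end (the molecule field says polyA RNA). Per the submitters' processing notes and the study's methods, the authors trimmed reads with Trim Galore 0.6.7, mapped them to GRCm39 with STAR 2.7.9a and quantified transcripts with Salmon 1.10.1. The deposited files hold, per transcript, estimated counts (fractions of a read are possible where reads fit several transcripts) and TPM, which the authors' Salmon run scales by effective length and by the library's total. The use of strand in quantification is not stated in the sources used here.

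Here the estimated counts were summed per gene with the deposited transcript table, rounded to whole numbers and kept for genes with at least 10 counts in total over the 12 libraries (25446 genes). Counts totalled 11221023 to 19652197 per library. edgeR 4.0.16 in R 4.3.3 was run with TMM factors and its quasi-likelihood test over all 12 libraries, with p-values adjusted by Benjamini-Hochberg over all tested genes. A gene was called at adjusted p below 0.01 and an absolute log2 fold change over 0.58, and for the difference between states at adjusted p below 0.01. Standard errors are the fold change divided by the root of the F statistic, and intervals are 95%. The scripts were tested on simulated data. No library repeated another within sampling noise. Alternatives were DESeq2 1.42.0, other scalings and filters, transcript-length offsets, a replicate block, the fold limit and leaving out each library.

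The 10 genes and the lists were chosen with earlier results of these data known. Genes named from the lists are those called in both 3xKD comparisons, up to 2 more with the largest called change in either, and Srebf1, Srebf2, Insig1 and Mlxipl in every case. Some genes that this rule names are not reported here. Genes around each member, the main transcripts and the chromosome medians were examined after values were seen. Promoter windows come from RefSeq (GRCm38.p6) and were placed in GRCm39 by exact match. Gene positions come from GENCODE M39 on GRCm39.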

Additional observations from a re-analysis of the deposited data

Results flagged for a closer look

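For 3 of the 10 genes the 3xKD effect differed between EpiLCs and ESCs by the test of the difference itself, an interaction in the edgeR model. The same test called 10% of all tested genes, and 26.3% of the 5846 genes with a mean at least as high as that of Acss2. The count lies near the latter share and is no result about the 10 genes as a group. The EpiLC effect minus the ESC effect was −0.5345 for Scd2, −0.3282 for Fads2 and 0.3278 for Slc25a1 on the log2 scale. For Scd2 the difference kept its sign and its call under every alternative that was run, from −0.56 to −0.46. For Fads2 it ranged from −0.91 to −0.25 and was lost with library size as the only scaling. For Slc25a1 it ranged from 0.09 to 0.40 and was lost under both corrections for transcript length. The summed formative markers of the 3xKD EpiLCs, 1728 to 1792 CPM against 3025 to 3390 in Neg EpiLCs, moved with the same contrast, and their part in these differences was not tested.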

How the results depend on the processing

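Of 50 gene-level results for the 10 genes, 21 kept their direction and side of the threshold under all alternatives. Of the 50, 22 gained a call under some alternative, 4 lost a call and 5 changed sign. The alternative without the fold limit, at adjusted p below 0.05, lets changes within that limit pass by design. The counts of called genes for 3xKD against Neg (6 in ESCs, 5 in EpiLCs) were the same under every scaling, filter and tool. Without the fold limit and at adjusted p below 0.05, 10 genes passed in 3xKD against Neg EpiLCs and 10 in each of the transitions of the Neg and 3xKD lines, against 38.1%, 44.1% and 42.6% of all tested genes. With upper-quartile factors 2 in place of 4 were called in the Neg transition. Leaving out each library gave 6 to 6, 5 to 5, 3 to 4, 2 to 3 and 3 to 3 called genes in the 5 comparisons. Sign reversals were found for Elovl6 in 3xKD against Neg under DESeq2 with length factors (0.15 in ESCs, 0.0753 in EpiLCs) and length offsets (0.18 and 0.0709), for the difference between states of Scd1 (0.25 and 0.21) and Fads1 (−0.0635 and −0.10) under the same settings, and for that of Acaca (0.0197) with library size alone. None of the reversed values was called. With library size alone the difference between states was called for 1522 genes higher and 824 lower in EpiLCs, against 1211 and 1342; transcript-length offsets called 337 and 394, and DESeq2 with length factors 805 and 783, so the 10% beside the 3 genes called rests on the lengths used. With a replicate block the counts were 6, 5, 4, 2 and 3, as without it. Libraries with the same number did not deviate together (correlations from −0.16 to 0.12, 1 of 18 pairs over 0.1), so the numbers were not taken as pairs. None of the 27 other genes followed changed sign in 3xKD against Neg. In 34 cases an alternative took a call from one of them: Scd3 and Elovl7 lost 1 call in 6 alternatives each, and Acsl4, Dhcr7, Fads6, Hsd17b8, Mlxipl, Mvd and Prkaa1 lost calls in fewer. Salmon's division of reads among overlapping transcripts and between Scd1 and Scd2 limits the length-corrected values.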
